A study of Mus musculus with 26 samples.

Results

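The genes described here are 42 genes of DNA replication and mitosis, read in microglia, the resident macrophages of the brain, sorted from 2 regions of the mouse forebrain. They were taken from a fixed list of symbols, and each probe was assigned to a gene through the transcript identifier that the array design gives it. Where several probes belonged to a gene, the probe with the highest mean over the 26 arrays stood for it. All 42 genes had a probe, of 36750 genes with a probe in all, and 29 of the 42 were among the 24684 genes bright enough to be tested. The list was drawn up from what the genes do, with earlier results of these data known. No measured value enters the rule for the genes, and signal enters it only in the choice of probe.

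The arrays hold RNA from EGFP-positive cells, isolated by flow cytometry from 1.5 mm punches of C57BL/6 mouse brain, taken either in the medial prefrontal cortex (mPFC) or in the nucleus accumbens (NAc). All groups carried the CX3CR1EGFP/+ genotype, in which EGFP takes the place of a copy of the microglial receptor gene Cx3cr1, so the naive wild-type mice (WT) were not free of a modified allele. The TLR-DKO mice carried the same reporter and a double knockout of Toll-like receptors, which the labels do not spell out and which in the publication means Tlr2 and Tlr4. Mice underwent repeated social defeat stress (R-SDS) or a transfer between cages (naive), and cells were taken 1.5 hours (90 minutes) after the final session. By the labels, every stressed WT sample is from susceptible mice and every stressed TLR-DKO sample from resilient ones, and after stress genotype and behavioural class cannot be told apart. Each sample pooled the cells of 3 to 6 mice to reach 500 pg of RNA, which was amplified before labelling. There were 3 samples each of WT mPFC naive, WT mPFC R-SDS, TLR-DKO mPFC R-SDS, WT NAc naive, WT NAc R-SDS and TLR-DKO NAc naive. TLR-DKO mPFC naive and TLR-DKO NAc R-SDS had 4 samples each.

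A cell that divides copies its genome once and then parts the copies. The MCM proteins form the ring-shaped helicase that is loaded at replication origins with the help of Cdc6 and Cdt1, and polymerases held by the Pcna clamp then copy the strands while Rrm1, Rrm2, Tyms and Tk1 supply nucleotides. Cyclins and their kinases time these steps, the D-type cyclins with Cdk4 at the start and Cdk1 with B-type cyclins at mitosis, when Plk1, the Aurora kinases and the Bub1 checkpoint oversee the spindle. E2f factors switch on the replication genes, and the mitotic genes follow later. The DREAM complex and Foxm1-containing complexes bind an element of mitotic genes called CHR, while E2f sites carry a GC-rich core. Adult microglia are known to divide rarely, and the D-type cyclins have uses outside division in them, so the genes of this list need not move as a block.

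The promoters below were chosen to show these elements in genes of replication and of mitosis, and because they span genes that were read on nearly every array (Mki67, Mcm6, Cdk1, Top2a, Cdc20, Ube2c) and genes that were mostly too dim (Mcm2, Kif11). Each is the stretch of 150 bases just before the annotated start, 5′ to 3′ on the gene's own strand, from RefSeq on GRCm38.p6. Capitals mark the CHR motif TTTGAA and the E2F motifs TTTCGCGC and TTTGGCGC, each also on the other strand (TTCAAA, GCGCGAAA and GCGCCAAA).
Mki67, chr7:135716380-135716529, minus strand: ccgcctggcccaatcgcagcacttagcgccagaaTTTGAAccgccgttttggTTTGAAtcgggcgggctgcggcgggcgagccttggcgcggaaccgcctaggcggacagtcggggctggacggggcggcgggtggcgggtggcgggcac
Top2a, chr11:99024190-99024339, minus strand: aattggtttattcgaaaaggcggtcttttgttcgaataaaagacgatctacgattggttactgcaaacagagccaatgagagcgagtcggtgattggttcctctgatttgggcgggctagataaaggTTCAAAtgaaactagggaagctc
Cdk1, chr10:69352913-69353062, minus strand: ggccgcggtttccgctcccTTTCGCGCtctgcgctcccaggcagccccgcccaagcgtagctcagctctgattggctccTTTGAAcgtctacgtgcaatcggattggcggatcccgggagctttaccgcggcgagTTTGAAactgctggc
Cdc20, chr4:118437344-118437493, minus strand: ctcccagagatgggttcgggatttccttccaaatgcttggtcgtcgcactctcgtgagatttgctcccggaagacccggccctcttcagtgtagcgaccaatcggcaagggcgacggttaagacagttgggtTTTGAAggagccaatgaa
Ube2c, chr2:164769779-164769928, plus strand: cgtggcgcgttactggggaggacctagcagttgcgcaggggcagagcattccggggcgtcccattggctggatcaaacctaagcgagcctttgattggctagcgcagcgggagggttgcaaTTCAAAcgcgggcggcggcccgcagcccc
Kif11, chr19:37376232-37376381, plus strand: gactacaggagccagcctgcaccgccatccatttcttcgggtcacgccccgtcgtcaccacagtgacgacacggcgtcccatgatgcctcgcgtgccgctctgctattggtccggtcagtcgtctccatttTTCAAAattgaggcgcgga
Mcm2, chr6:88898781-88898930, minus strand: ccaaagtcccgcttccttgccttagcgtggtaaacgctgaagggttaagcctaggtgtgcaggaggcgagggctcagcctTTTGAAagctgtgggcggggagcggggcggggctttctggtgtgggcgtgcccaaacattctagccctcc
Mcm6, chr1:128359706-128359855, minus strand: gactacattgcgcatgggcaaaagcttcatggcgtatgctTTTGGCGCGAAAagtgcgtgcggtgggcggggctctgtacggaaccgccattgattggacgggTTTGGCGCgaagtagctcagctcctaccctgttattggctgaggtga

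Mki67 holds a pair of CHR motifs that begin 116 and 98 bases before its start, and Cdk1 holds 2 CHR motifs, at 71 and 15 bases, below an E2F motif at 131 bases. In Mcm6, E2F motifs on the opposite strands overlap, beginning 110 and 106 bases before the start, and another lies at 47 bases. Of the 42 genes, 33 matched a promoter in the RefSeq table. Over the window from 250 bases before to 50 bases after the start, 12 of these 33 (36.4%) held a CHR motif against 18.1% of 27025 promoters. An E2F motif was in 6 of 33 (18.2%) against 0.833% of all promoters, and CCAAT, a box that often stands beside CHR elements (either strand, ATTGG on the other), was in 23 of 33 (69.7%) against 37.9%. Of the 14 promoters of mitotic genes (late cyclins, mitotic kinases and checkpoint, spindle and kinetochore, anaphase-promoting complex), 9 held CHR and 0 held E2F, and of 7 promoters of helicase and licensing genes, 1 held CHR and 5 held E2F. The 5 promoters of the clamp and nucleotide genes held neither. These counts carry no test. A match describes the letters in this window and is not evidence of binding.

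The first question was how many of the genes could be read at all. By the scanner software's call of a spot well above background, 16 of the 42 genes (38.1%) passed on all 26 arrays, against 38.4% of all genes. These 16 were the helicase subunits Mcm3, Mcm4, Mcm5 and Mcm6, the clamp Pcna, the thymidylate synthase Tyms, the kinases Cdk1, Cdk4 and Plk1, the cyclins Ccnd1, Ccnd3, Ccne1 and Ccnb2, the topoisomerase Top2a, the ubiquitin-conjugating enzyme Ube2c and the factor E2f1. Another 8 passed on 20 to 25 arrays (Mki67, Mcm7, Cdt1, Rrm1, Ccnd2, Aurka, Birc5 and Cdc20), 11 on 4 to 19 arrays and 6 on 1 to 3 arrays. The 6 dimmest were the origin loader Cdc6, the cyclin Ccne2, the checkpoint kinases Bub1 and Bub1b, the spindle motor Kif11 and the spindle assembly factor Tpx2. Aurkb, the kinase of the chromosomal passenger complex, was well above background on no array. Its partner Birc5 passed on 22 arrays.

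**Figure D1:**
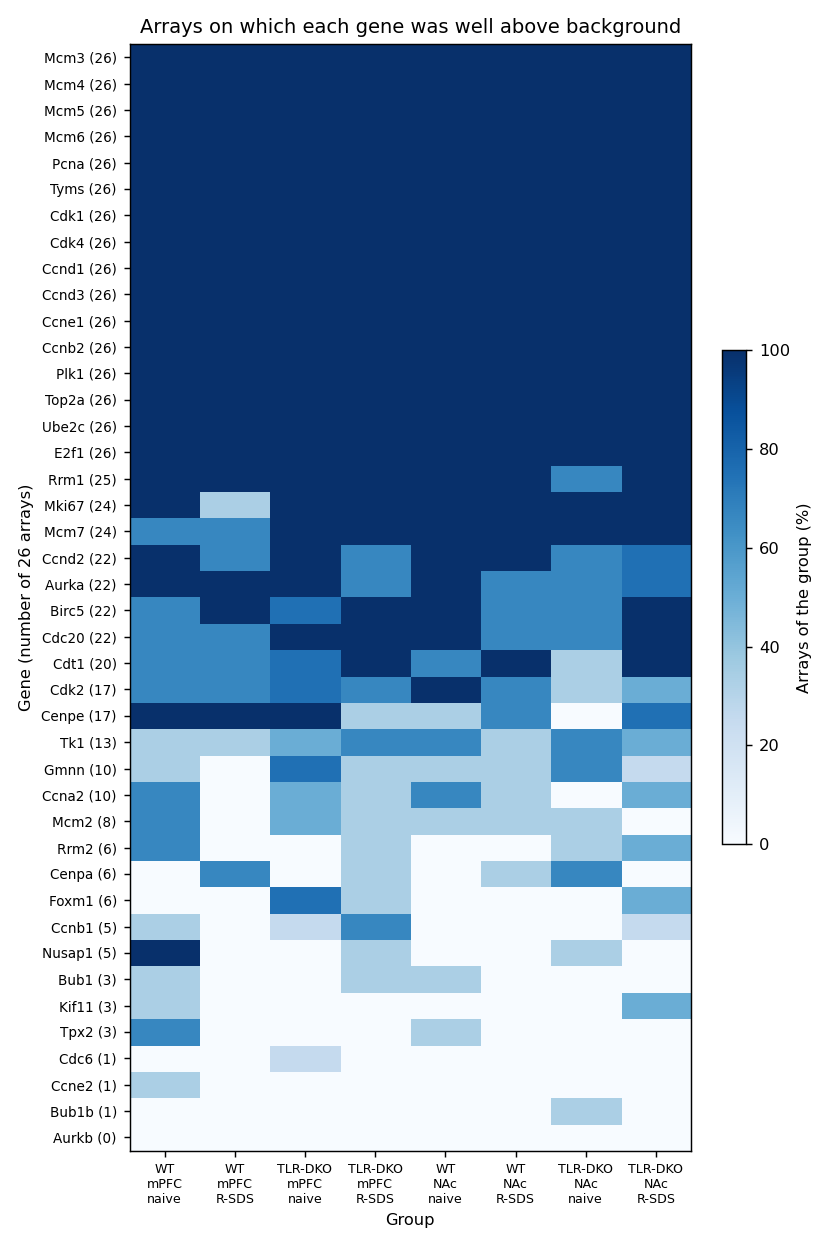
Share of the arrays in each group (colour, %) on which each of the 42 genes (rows, with the number of 26 arrays in brackets) was well above background, by group (columns). The upper 16 genes were read on every array, while Aurkb at the bottom was read on none.

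The dim genes differed in which groups they were read in. Rrm2, the S-phase subunit of ribonucleotide reductase, was well above background on 2 of 3 WT mPFC naive, 1 of 3 TLR-DKO mPFC R-SDS, 1 of 3 TLR-DKO NAc naive and 2 of 4 TLR-DKO NAc R-SDS arrays and on none of the other groups. Cenpa, the histone of the centromere, passed on 2 of 3 WT mPFC R-SDS and 2 of 3 TLR-DKO NAc naive arrays, on 1 array each of TLR-DKO mPFC R-SDS and WT NAc R-SDS, and on none of the remaining groups. Nusap1, which bundles spindle microtubules, passed on all 3 WT mPFC naive arrays and on 2 of the other arrays. Foxm1, the factor for mitotic genes, passed on 3 of 4 TLR-DKO mPFC naive, 2 of 4 TLR-DKO NAc R-SDS and 1 of 3 TLR-DKO mPFC R-SDS arrays and on 0 of the 12 WT arrays.

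The number of the 42 genes read on an array ran from 20 (WT mPFC R-SDS replicate 3) to 36 (WT mPFC naive replicate 3). It moved with the array's brightness, measured as the percent of all spots well above background, which ran from 50% to 71.0%. Across the 26 arrays Pearson's r was 0.79 (permutation p = 1e-05, the smallest that 100000 resamples allow) and Spearman's rho 0.65 (permutation p = 0.00047), in a single relation tested. Without the 2 arrays farthest from the median brightness r was 0.66. Within the arrays of scan day 1 it was 0.57 and within those of day 2 it was 0.89. The same flag gives both the count and the percent, and no other set of genes was compared. The relation therefore cannot be read as particular to the 42 genes. The array with 20 genes was also the dimmest by its 75th percentile of signal (80.7 units, against 127.7 to 340.5 on the others). The part of array brightness in the counts was not tested. In a fit that weights arrays by how well they match their group over all genes, that array had the lowest weight, 0.25, and replicate 1 of naive TLR-DKO mPFC the next, 0.47, where the mean array has a weight near 1.

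**Figure D2:**
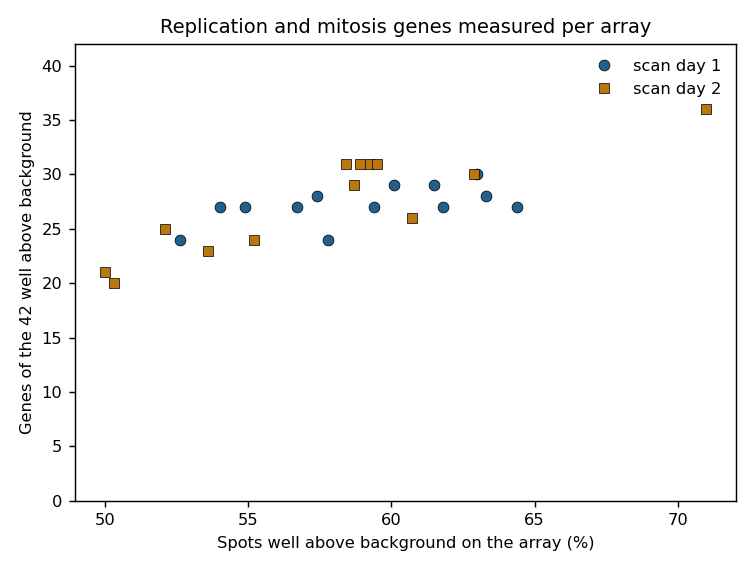
Number of the 42 genes well above background (vertical axis) against the percent of all spots well above background (horizontal axis), 1 point per array, circles for scan day 1 and squares for day 2. The counts range from 20 to 36 and are higher on arrays with more bright spots.

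Values below are log2 of the background-subtracted signal minus the array's own 75th percentile, so 0 is that percentile, and levels of different genes are not set against each other. Each gene's groups were fitted together in limma over all 24684 genes tested, with Benjamini-Hochberg adjustment over those genes and a threshold of 0.05. In bulk RNA of this kind, fewer dividing cells and less RNA per cell cannot be told apart. The study states that 2 experiments used different mice, and p-values measure the spread between these pooled samples, not between single mice.

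None of the 29 genes tested passed the threshold in any of the 17 comparisons: 4 of stress, 4 of genotype, 4 of region, the average of each, and the difference of the stress effects between genotypes in each region. The share of all genes called was also small. It was 0% for stress in WT NAc, stress in TLR-DKO mPFC, region in naive WT, region in naive TLR-DKO, averaged stress and both differences of stress effects. It was 0.00405% for region in stressed WT and stressed TLR-DKO, 0.0081% for stress in WT mPFC, stress in TLR-DKO NAc and genotype in the stressed NAc, and 0.0122% for genotype in the naive mPFC, stressed mPFC and naive NAc. It reached 0.0203% for averaged genotype and 0.895% (221 genes) for averaged region, so 0 of 29 is near the background in each. The smallest adjusted p of any of the 42 genes in any comparison was 0.257, for Top2a between regions. At an unadjusted p under 0.05 the 29 genes gave 28 results over the 17 comparisons, which are named below with the share of all genes that reached the same p. Of the 29, Gmnn, Nusap1 and Foxm1 passed the brightness filter through a single group each, in which they are high. For Nusap1 and Foxm1, 4 of the 28 results are drawn against that group, and the counts over the 29 are given as descriptions for this reason.

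Mki67, the marker of cycling cells that coats mitotic chromosomes, had the smallest p of all in these comparisons. Mki67 read -2.20, -1.18 and -0.63 in the naive and -3.35, -2.86 and -4.69 in the R-SDS samples of WT mPFC. In TLR-DKO mPFC its values were -0.94, -2.94, -1.43 and -1.81 in naive and -0.36, -1.85 and 0.96 in R-SDS samples. The 3 stressed WT mPFC samples lay below all the other mPFC samples but one, the lowest naive TLR-DKO sample, which lay between them. The WT NAc samples read -2.09, -0.53 and -0.60 when naive and -1.43, -1.79 and -2.63 after stress. In TLR-DKO NAc they read -2.40, -0.52 and -2.17 when naive and -0.44, -1.85, 0.65 and -0.12 after stress. Within the NAc the naive and stressed samples of each genotype overlapped.

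Among stressed mPFC samples, Mki67 was 3.21 ± 0.76 (SE, adjusted p = 0.491) higher in TLR-DKO than in WT, with an unadjusted p of 0.000398 and no overlap between the groups. Between stressed and naive WT mPFC the difference was -2.30 ± 0.76 (SE, adjusted p = 0.829), again without overlap. The stress effect of TLR-DKO minus that of WT in the mPFC was 3.66 ± 1.04 (SE, adjusted p = 0.809). These 3 comparisons share the stressed WT mPFC arrays, of which only 1 of 3 was well above background for this probe. In the stressed NAc the difference between genotypes was 1.51 ± 0.71 (SE, adjusted p = 0.997), and between regions in stressed WT samples it was 1.69 ± 0.76 (SE, adjusted p = 0.576). Averaged over region and condition, Mki67 was 0.91 ± 0.37 (SE, adjusted p = 0.515) higher in TLR-DKO, 0.72 within scan day 1 and 1.58 within day 2. Its averaged stress difference was -0.14 ± 0.37 (SE, adjusted p = 0.985), with a 95% interval of -0.91 to 0.63, and its direction turned with normexp background correction (0.11).

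The array carries a second probe for Mki67, dimmer and well above background on 15 of 26 arrays. Across the 26 arrays the 2 probes had a Pearson r of 0.23 (permutation p = 0.253) and a Spearman rho of 0.31 (permutation p = 0.125). The second probe read -2.88 ± 2.51 (SD, n = 3) in stressed WT mPFC and -2.84 ± 2.22 (SD, n = 3) in stressed TLR-DKO mPFC. The difference between those groups, TLR-DKO minus WT, was 0.044, where the brighter probe gave 3.21. For stress in WT mPFC it gave -1.19 and for naive mPFC, TLR-DKO minus WT, -2.91, where the brighter probe gave -0.45. For region in stressed WT it gave -1.37 and for averaged genotype -0.25, the opposite direction to the brighter probe (1.69 and 0.91). For the mPFC difference of stress effects it gave 2.95 and for genotype in the stressed NAc 1.92, the same direction as the brighter probe. Without WT mPFC R-SDS replicate 3, which had the lowest Mki67 value of any array, the stress difference in WT mPFC was -1.77 and the genotype difference after stress 2.69. With normexp background correction they were -0.63 and 1.32. Each slide was also fitted alone, with few samples a group, and slide 1 gave -1.42 and 2.0 where slide 2, which holds replicate 3, gave -4.06 and 5.65. Over all alternatives the adjusted p ran from 0.269 to 0.999 for stress in WT mPFC and from 0.133 to 1 for genotype after stress.

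**Figure D3:**
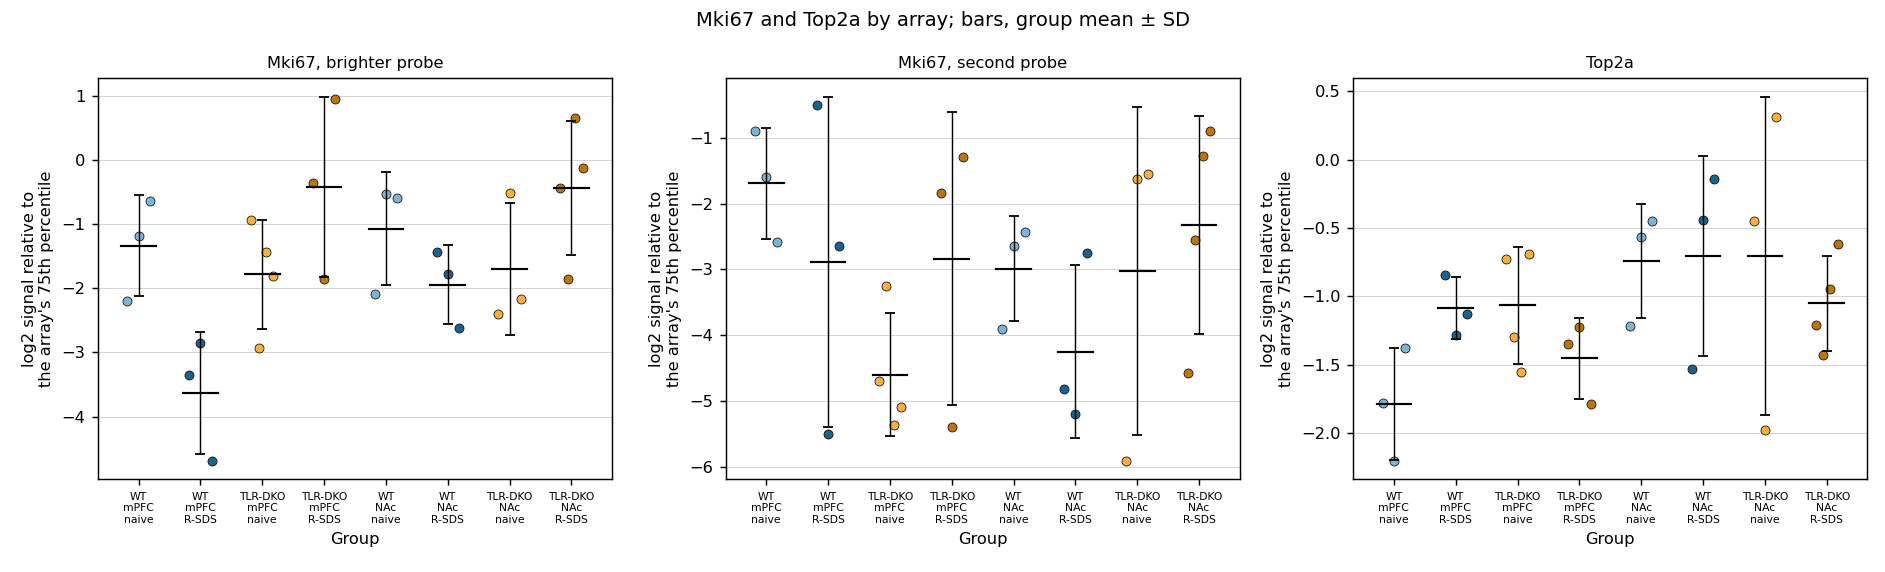
Mki67 by its brighter and its second probe, and Top2a, in log2 units with the 75th percentile of each array at 0 (vertical axes, which differ between panels), by group. Points are arrays, and bars give the group mean ± SD. The low stressed WT mPFC samples of the brighter Mki67 probe, between -4.69 and -2.86, are spread over a wider range in the second probe.

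The helicase genes gave the next results. Mcm6 read 3.31, 4.00, 3.82 and 5.16 in naive TLR-DKO mPFC samples and 0.45, -2.24 and 4.04 in the stressed ones. In WT mPFC it read 2.40, 2.06 and 3.55 in naive and 1.42, -0.33 and 1.73 in stressed samples. The 4 naive TLR-DKO samples were high, and 1 stressed TLR-DKO sample overlapped them. In WT NAc, Mcm6 read 1.55, 1.15 and 3.06 in naive and 2.60, 0.14 and 2.47 in stressed samples. TLR-DKO NAc gave -2.60, 2.08 and 2.67 in naive and 1.38, 1.44, -0.23 and 2.59 in stressed samples. The stress difference in TLR-DKO mPFC was -3.32 ± 1.22 (SE, adjusted p = 0.923), and naive TLR-DKO samples of the NAc differed from those of the mPFC by -3.36 ± 1.22 (SE, adjusted p = 0.448), without overlap. Both differences rest on the same 4 naive mPFC arrays, and within slide 1 the stress difference was -4.20, within slide 2 -0.29. Averaged over genotype and region, the stress difference of Mcm6 was -1.16 ± 0.63 (SE, adjusted p = 0.924), with a 95% interval of -2.48 to 0.16.

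Mcm3, another subunit of the ring, had the same 2 comparisons at an unadjusted p under 0.05. Its group mean was 2.67 ± 0.32 (SD, n = 4) in naive TLR-DKO mPFC, 1.49 ± 0.63 (SD, n = 3) after stress and 1.39 ± 0.58 (SD, n = 3) in the naive NAc of that genotype. The stress difference was -1.18 ± 0.54 (SE, adjusted p = 0.951) and the region difference -1.28 ± 0.54 (SE, adjusted p = 0.541), neither with overlap. The stress effect of TLR-DKO minus that of WT in the mPFC was -1.87 ± 0.79 (SE, adjusted p = 0.809), and -0.77 without the 2 arrays of lowest weight. In WT mPFC R-SDS replicate 3, the dim array, Mcm3 read 4.49 and Mcm5 2.79, the highest values of any array for both, while Mcm7 read -4.77, the lowest. Mcm7 was well above background on 2 of the 3 arrays of that group, where it read 1.52 and 1.57. Its value on the dim array was that of Rrm2 there (-4.77), a gene read on no array of that group. These subunits belong to 1 ring, but Mcm7 was not read on this array, so no low level is set against Mcm3 and Mcm5.

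**Figure D4:**
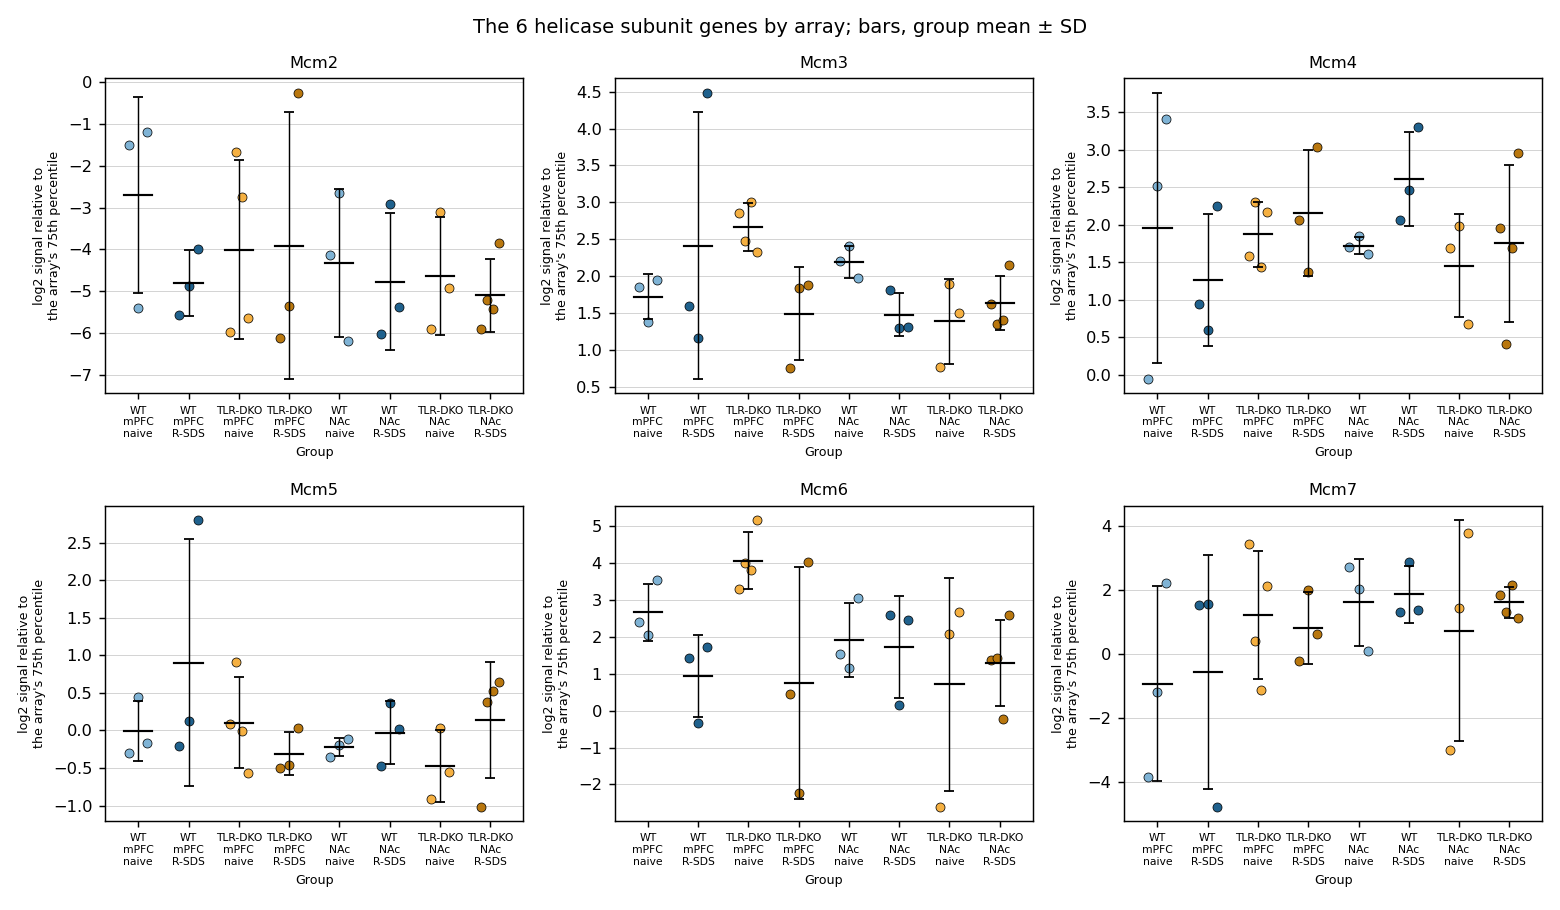
The helicase subunit genes Mcm2 to Mcm7, in log2 units with the 75th percentile of each array at 0 (vertical axes, which differ between panels), by group. Points are arrays and bars the group mean ± SD. Mcm3 and Mcm6 are highest on average in naive TLR-DKO mPFC samples, while Mcm2 is mostly at the low end of its range and Mcm7 spreads widely in 3 groups.

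Of the other helicase genes, Mcm4 and Mcm5 had no comparison at an unadjusted p under 0.05. Their group means ran from 1.26 to 2.61 for Mcm4 and from -0.48 to 0.90 for Mcm5. Mcm7, with a within-group SD of 2.23, and the licensing factor Cdt1 (2.34) and its inhibitor Gmnn (2.48) varied more between samples of a group than 97.8% to 99.1% of the genes tested. Mcm2 was well above background on 8 arrays and Cdc6 on 1. The averaged stress difference of Cdt1 was 1.28, with a wide 95% interval of -0.53 to 3.09. Gmnn was well above background on 10 arrays and reached the tests through naive TLR-DKO mPFC alone, so no difference is given for it.

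Among the genes of DNA synthesis, Tyms, which makes thymidylate, had the smallest p between genotypes. Tyms read -0.79, -1.14 and -0.85 in WT and -1.24, -1.57, -1.58 and -1.42 in TLR-DKO samples of the naive mPFC. After stress the mPFC values were 0.34, -0.85 and -0.47 in WT and -0.26, -0.94 and -1.19 in TLR-DKO. The naive mPFC groups did not overlap, and the stressed ones did. Naive NAc samples read -0.19, -0.023 and -0.026 in WT and -0.22, -1.85 and -1.21 in TLR-DKO. Stressed NAc samples read -0.12, 0.23 and -0.62 in WT and -0.18, -0.12, -1.54 and -1.22 in TLR-DKO. The naive NAc groups were also apart, though the nearest values were -0.19 and -0.22, and the stressed NAc groups overlapped. Averaged over region and condition, Tyms was -0.65 ± 0.21 (SE, adjusted p = 0.394) in TLR-DKO minus WT, with an unadjusted p of 0.00529 and a group mean that was lower in TLR-DKO in 4 of 4 settings. In the naive NAc alone the difference was -1.01 ± 0.43 (SE, adjusted p = 1). Fitted within each slide, with few samples a group, that difference was -0.030 on slide 3 and -1.50 on slide 4. The samples of scan day 1 gave an averaged genotype difference of -0.21 and those of day 2 -0.92. Its averaged stress difference was 0.37 ± 0.21 (SE, adjusted p = 0.928).

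The other synthesis genes gave little that could be read. Pcna, the clamp that rings DNA, was well above background on all arrays and among the steadiest of the genes, with a within-group SD of 0.52. Its averaged differences were 0.29 for stress (95% interval -0.15 to 0.73), -0.12 for genotype (-0.56 to 0.32) and -0.23 for region (-0.67 to 0.21), so that an averaged change of 1 log2 unit lay outside all 3 intervals. Rrm1, the large subunit of ribonucleotide reductase, was 1.68 ± 0.37 (SD, n = 4) in naive TLR-DKO mPFC and -1.51 ± 2.45 (SD, n = 3) in the naive NAc. That difference was -3.19 ± 1.19 (SE, adjusted p = 0.47), without overlap. Tk1, the thymidine kinase of S phase, had the largest within-group SD of the 42 genes, 2.88, and was well above background on 13 arrays. Neither Tk1 nor Rrm2 was bright enough to be tested.

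Of the cyclins and kinases of the first part of the cycle, Ccnd1, Ccnd3, Cdk4 and Ccne1 were well above background on all arrays. Ccnd2, Cdk2 and Ccne2 were so on fewer. Ccnd1, the first D-type cyclin, read 2.22, 2.24 and 3.15 in naive and 1.90, 2.68 and 2.47 in stressed WT mPFC samples. In TLR-DKO mPFC it read 1.94, 2.27, 3.40 and 2.26 in naive and 2.21, 2.64 and 3.13 in stressed samples. Ccnd1 was well above background on all arrays, and naive and stressed mPFC samples overlapped in both genotypes. WT NAc samples read 2.59, 3.17 and 3.02 when naive and 2.68, 1.15 and 3.17 after stress. TLR-DKO NAc samples read 2.66, 3.28 and 4.02 when naive and 2.91, 2.08, 2.78 and 3.89 after stress. Its averaged stress difference was -0.25 ± 0.26 (SE, adjusted p = 0.979), the genotype difference 0.30 ± 0.26 (SE, adjusted p = 0.785) and the region difference 0.37 ± 0.26 (SE, adjusted p = 0.509), none at an unadjusted p under 0.05.

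Ccnd2, a second D-type cyclin, was well above background on 22 arrays. Ccnd2 read -2.72, -2.40 and -0.71 in naive and -0.43, -2.21 and -2.16 in stressed WT mPFC samples. TLR-DKO mPFC gave -1.82, -3.17, -2.69 and -2.59 in naive and -2.28, -3.25 and -3.32 in stressed samples. After stress the 3 WT samples of the mPFC were all higher than the 3 TLR-DKO samples. WT NAc gave -0.48, -1.93 and -0.53 in naive and -2.24, -1.81 and 0.34 in stressed samples. TLR-DKO NAc gave -1.06, -2.11 and -3.31 in naive and -1.96, 0.11, -3.25 and -2.08 in stressed samples. Genotypes overlapped in the NAc, and the averaged genotype difference was -0.93 ± 0.40 (SE, adjusted p = 0.554), with an unadjusted p of 0.0291. It was -0.046 within scan day 1 and -1.94 within day 2.

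Ccnd3, the third of these cyclins, read 0.83, -0.27 and 1.97 in naive and 0.17, 1.25 and 2.35 in stressed WT mPFC samples. In TLR-DKO mPFC it read 1.26, 2.76, 0.17 and 2.86 in naive and 1.12, 1.52 and 2.15 in stressed samples. Both mPFC pairs of groups overlapped. WT NAc samples read 0.81, 1.25 and 0.81 when naive and 0.78, 0.46 and -0.43 after stress, without overlap. TLR-DKO NAc samples read 0.83, 1.69 and 0.54 when naive and 1.58, 0.53, 0.76 and 1.61 after stress. The stress difference in WT NAc was -0.69 ± 0.67 (SE, adjusted p = 1), and the averaged one -0.087 ± 0.33 (SE, adjusted p = 0.989). A second probe for Ccnd3, also well above background on all 26 arrays, had a Pearson r of -0.17 with the one used (permutation p = 0.418). For stress in WT NAc this second probe gave 0.53 and for averaged stress 0.50, the opposite direction to the probe used.

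Cdk4, the partner of the D-type cyclins, had group means from 1.35 to 2.39, and Ccne1, the cyclin of entry into S phase, from -1.50 to -0.50. Cdk2, its kinase partner, was well above background on 17 arrays and Ccne2 on 1. None of the 3 of these that were tested (Cdk4, Ccne1, Cdk2) had a comparison at an unadjusted p under 0.05. Cdk4 has 3 probes, all well above background on 26 arrays. A second one had a Pearson r of 0.84 with the one used (permutation p = 1e-05, adjusted p = 0.00015 over 15 pairs of probes) and a Spearman rho of 0.80 (permutation p = 2e-05), and r was 0.78 without the 2 arrays farthest from the median. The third had an r of 0.092 with the one used (permutation p = 0.652). Over the 15 pairs, in 11 genes, r ran from -0.19 to 0.84 with a median of 0.17, and 4 pairs were below 0. The dim probe of Ccne1 was well above background on 0 arrays where the bright one was on 26, and the 2 further probes of Cdk1 were on 3 and 2 arrays where the one used was on 26. A level given for a gene is the level of a single probe.

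At mitosis, Cdk1, the kinase that drives entry, was well above background on all arrays with group means from -1.34 to -0.48, and Ccnb2, its B-type cyclin, had means from -1.95 to -0.74. Ccnb1 was well above background on 5 arrays and Ccna2, the cyclin of S and G2 phase, on 10. Plk1, a kinase of centrosomes and kinetochores, was the steadiest of the 42 genes, with a within-group SD of 0.37, smaller than in all but 8.35% of the genes tested. Its averaged difference was 0.14 for stress (95% interval -0.20 to 0.48), -0.21 for genotype (-0.55 to 0.13) and 0.24 for region (-0.10 to 0.58). Aurka, the kinase of spindle poles, and Birc5 were each well above background on 22 arrays, with group means from -3.10 to -1.24 and from -3.31 to -2.54. None of the 3 mitotic kinase and checkpoint genes tested (Plk1, Aurka, Birc5) had a comparison at an unadjusted p under 0.05.

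Top2a untangles DNA before chromosomes part, and it had the smallest adjusted p of the 42 genes. Top2a read -1.78, -2.20 and -1.38 in naive and -0.84, -1.29 and -1.13 in stressed WT mPFC samples. TLR-DKO mPFC samples read -0.73, -1.30, -1.55 and -0.69 when naive and -1.35, -1.22 and -1.79 after stress. The naive WT samples were the lowest group, and did not overlap the stressed WT ones. In WT NAc the values were -1.22, -0.57 and -0.45 in naive and -1.53, -0.44 and -0.14 in stressed samples. In TLR-DKO NAc they were -0.45, -1.98 and 0.31 in naive and -1.21, -1.43, -0.95 and -0.62 in stressed samples. NAc samples were 0.55 ± 0.23 (SE, adjusted p = 0.257) above mPFC samples on average, with a 95% interval of 0.075 to 1.02, and the difference in naive WT mice was 1.04 ± 0.47 (SE, adjusted p = 0.952), without overlap. Within scan day 1 the averaged region difference was 0.27 and within day 2 0.80. With slide as a random block 0 of the 24684 genes passed in the averaged region effect. Its averaged stress difference was 0.0019 ± 0.23 (SE), with an interval of -0.47 to 0.47, and its genotype difference 0.011 ± 0.23 (SE), with -0.46 to 0.48. The direction of both of these turned with normexp background correction (to -0.082 and -0.024), and that of the stress difference also with quantile normalization (-0.042) and median centring (-0.094).

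Cenpe, the motor that carries chromosomes to the spindle's middle, was well above background on 17 arrays. Cenpe read -2.74, -2.17 and -0.81 in naive and -2.68, -3.10 and -2.10 in stressed WT mPFC samples. TLR-DKO mPFC gave -3.22, -3.0, -2.73 and -2.55 in naive and -3.17, -3.18 and -4.99 in stressed samples. WT and TLR-DKO samples of the mPFC overlapped when naive, and did not after stress. WT NAc gave -3.42, -3.52 and -3.45 in naive and -2.74, -2.48 and -3.70 in stressed samples. TLR-DKO NAc gave -3.79, -5.82 and -3.92 in naive and -2.83, -2.79, -1.84 and -5.13 in stressed samples. Cenpe was -0.84 ± 0.34 (SE, adjusted p = 0.523) in TLR-DKO minus WT and -0.73 ± 0.34 (SE, adjusted p = 0.314) in NAc minus mPFC on average. Within scan day 1 these were -0.40 and -0.23, and within day 2 -1.50 and -1.22. In naive mice the region difference was -1.56 ± 0.70 (SE, adjusted p = 0.952) in WT. In naive TLR-DKO mice it was -1.64 ± 0.66 (SE, adjusted p = 0.517), and since no NAc array of that group was well above background, it is given as at least 1.59-fold lower in the NAc. Such a bound sets the brighter group's mean against the higher of the dim probe's own value and the lowest signal of any probe well above background on each array.

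Nusap1 was well above background on 5 arrays. Nusap1 read -3.40, -1.28 and -3.69 in naive and -5.65, -4.15 and -4.70 in stressed WT mPFC samples. In TLR-DKO mPFC it read -4.90, -4.02, -4.32 and -3.85 in naive and -4.31, -4.62 and -3.61 in stressed samples. The 3 naive WT mPFC samples were 3 of the 4 highest mPFC samples, the other being a stressed TLR-DKO sample. WT NAc samples read -5.53, -4.16 and -5.89 when naive and -5.60, -4.69 and -5.54 after stress. TLR-DKO NAc samples read -5.06, -4.85 and -1.43 when naive and -5.96, -3.76, -5.22 and -4.07 after stress. Stressed WT mPFC samples were at least 1.61-fold lower than naive ones and naive WT NAc samples at least 1.94-fold lower than naive WT mPFC ones, and no test is drawn from either, because Nusap1 was bright enough to be tested only through the naive WT mPFC samples. Its averaged stress difference was -0.75 ± 0.39 (SE). That average includes the same group, so it is also a description with no test drawn from it. For averaged stress 0 of the 29 genes reached an unadjusted p under 0.05, against 5.46% of all genes.

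Foxm1, by the probe used, was well above background only in TLR-DKO samples, on 6 of the 14. Its group means in TLR-DKO were -2.52 ± 1.63 (SD, n = 4) in the naive and -3.71 ± 1.73 (SD, n = 3) in the stressed mPFC. In the NAc of that genotype they were -5.69 ± 0.40 (SD, n = 3) when naive and -3.19 ± 1.57 (SD, n = 4) after stress. Naive TLR-DKO mPFC samples were at least 2.51-fold higher than naive WT mPFC ones, with overlap, and naive TLR-DKO NAc samples at least 2.03-fold lower than naive TLR-DKO mPFC ones. Foxm1 was bright enough to be tested only through the naive TLR-DKO mPFC samples, so both are descriptions with no test. Stressed TLR-DKO NAc samples were at least 1.28-fold higher than naive ones (adjusted p = 1 in limma). No size is given for genotype in the naive NAc, where neither group was well above background on any array, nor for the NAc difference of stress effects, where that held for 3 of its 4 groups. A second, dimmer probe of Foxm1 was well above background on 2 arrays. For genotype in the naive mPFC it gave -0.095 and for stress in TLR-DKO NAc -0.26, the opposite direction to the probe used. For region in naive TLR-DKO it gave -0.81, the same direction. E2f1, the other factor, read steadily on all arrays, with group means from -1.96 to -1.09 and an averaged stress difference of -0.18 ± 0.21 (SE, adjusted p = 0.979).

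The remaining mitotic genes gave no comparison at an unadjusted p under 0.05. Ube2c and Cdc20 serve the anaphase-promoting complex, and their group means ran from -1.98 to -1.14 and from -2.82 to -1.25. Cenpa, Kif11, Tpx2, Bub1, Bub1b and Aurkb were not tested. Of these, Cenpa read -2.09, -1.40 and -3.28 in stressed and -6.16, -5.47 and -5.11 in naive WT mPFC samples, which do not overlap. No array of the naive group was well above background, and Cenpa was singled out after its values were seen.

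Read by comparison, the 28 results lay on both sides of the share found over all genes. Nusap1 entered the tests only through naive WT mPFC, a group of its comparisons for stress in WT mPFC and region in naive WT. Foxm1 did so only through naive TLR-DKO mPFC, a group of those for genotype in the naive mPFC and region in naive TLR-DKO. These entries are listed as descriptions only. So are 2 others of Foxm1. For genotype in the naive NAc, neither group was well above background on any array. For the NAc difference of stress effects, only the stressed TLR-DKO group had such arrays. Stress in WT mPFC had 2 of 29 (Mki67, Nusap1) against 5.91% of all genes, stress in TLR-DKO mPFC 2 (Mcm3, Mcm6) against 5.06%, stress in WT NAc 0 against 2.93% and stress in TLR-DKO NAc 1 (Foxm1) against 3.03%. Between genotypes there was 1 in the naive mPFC (Foxm1) against 5.68%, 1 in the stressed mPFC (Mki67) against 5.85%, 2 in the naive NAc (Tyms, Foxm1) against 3.3% and 1 in the stressed NAc (Mki67) against 4.02%. Between regions there were 3 in naive WT (Cenpe, Nusap1, Top2a) against 5.15%, 1 in stressed WT (Mki67) against 8.53%, 5 in naive TLR-DKO (Mcm3, Mcm6, Rrm1, Cenpe, Foxm1) against 8% and 0 in stressed TLR-DKO against 2.54%. The averaged genotype effect had 4 (Mki67, Tyms, Ccnd2, Cenpe) against 8.24% and the averaged region effect 2 (Cenpe, Top2a) against 15.4%. The differences of stress effects had 2 in the mPFC (Mki67, Mcm3) against 6.1% and 1 in the NAc (Foxm1) against 2.51%.

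Groups that did not overlap at all were counted as well. Nusap1 is among the genes apart for stress in WT mPFC, region in naive WT and genotype in the naive mPFC, and Foxm1 for region in naive TLR-DKO. Each was tested only through a group of those comparisons, so these counts are descriptions. Foxm1 was also apart for stress in each genotype's NAc, for genotype in the naive NAc and for region in naive WT. Each of these involves a group in which its probe was well above background on no array. For stress in WT NAc the nearest values were -3.903 and -3.908. In WT mPFC, naive and stressed samples did not overlap for 6 of the 29 genes, against 8.1% of all genes tested, and in TLR-DKO mPFC for 3, against 6.25%. The NAc gave 6 in WT, against 8.16%, and 1 in TLR-DKO (Foxm1), against 4.22%. Genotypes were apart for 5 genes in the naive mPFC, against 5.72%, and for 4 after stress, against 9.23%. In the naive NAc they were apart for 5, against 7.37%, and in the stressed NAc for 0, against 7.2%. Regions were apart for 6 in naive WT, against 11.6%, and for 1 in stressed WT, against 12.9%. In TLR-DKO they were apart for 5 when naive, against 8.17%, and for 0 after stress, against 4.99%.

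In the averaged effects the medians over all 42 genes, dim ones included, lay near those over all 36750 genes with a probe. The averaged stress difference had a median of -0.047 over the 42, beside 0.049, and 19 of 42 were above 0, against 56.7%. The averaged genotype difference had a median of -0.082, beside -0.11, with 18 of 42 above 0, against 35.6%. For region the medians were -0.16 and -0.081, with 18 of 42 above 0, against 41.1%. The median farthest from 0 was that of the stress effect of TLR-DKO minus that of WT in the NAc, 0.52 over the 42 beside -0.072, where 28 of the 42 were above 0, against 45.6%. In the naive NAc the genotype median was -0.35 beside -0.037, with 15 of 42 above 0, against 47.1%. These 2 values share the naive NAc samples.

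**Figure D5:**
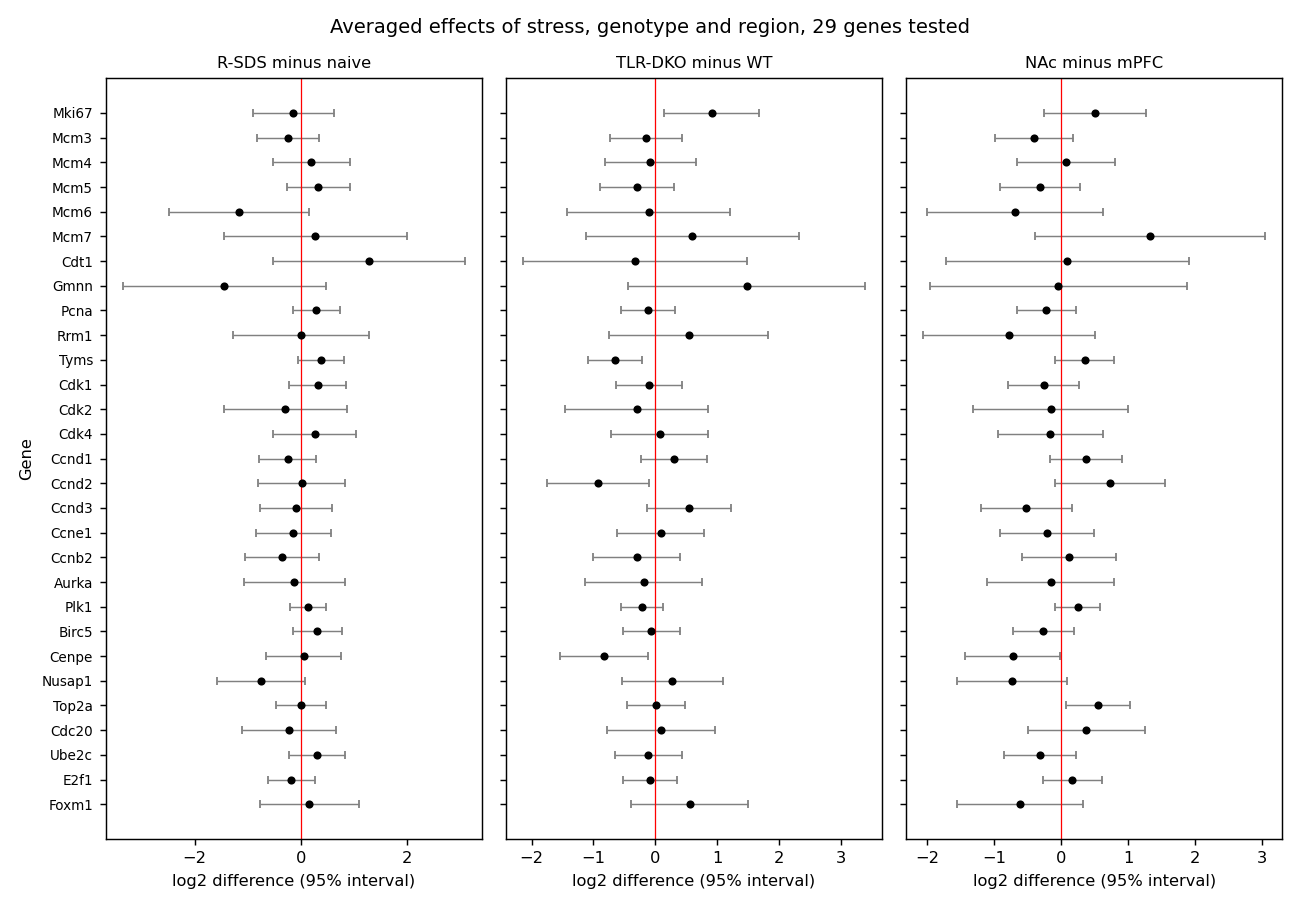
Averaged log2 differences with 95% intervals (horizontal axes) of the 29 genes tested (rows, in order of role) for R-SDS minus naive, TLR-DKO minus WT and NAc minus mPFC. Intervals of Pcna, Plk1 and E2f1 are narrow, while those of Cdt1 and Mcm7 are several times wider.

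Further genes of the same processes were read from lists that hold none of the 42. Of 40 further replication genes 28 were tested, of 43 further mitotic genes 22, and of 30 inhibitors and regulators of the cycle 26. In the averaged stress effect 0 of each list passed the threshold, against 0% of all genes tested. An unadjusted p under 0.05 was reached by 3 of the 28, 2 of the 22 and 5 of the 26, against 5.46% of all genes. The lists were not tested as sets. The smallest p in each list for stress was that of Pold2, a polymerase subunit (1.51 ± 0.59, SE, adjusted p = 0.888), Prc1, which bundles the midzone of the spindle (1.1 ± 0.39, SE, adjusted p = 0.822), and Btg2, an antiproliferative immediate early gene (0.85 ± 0.23, SE, adjusted p = 0.539). Btg2 had higher group means after stress in all 4 settings, 3.48 against 2.61 in WT mPFC, 3.31 against 2.35 in TLR-DKO mPFC, 3.25 against 2.19 in WT NAc and 2.87 against 2.35 in TLR-DKO NAc. For genotype again 0 passed, against 0.0203% of all genes. The smallest p were those of the nuclease Fen1 (1.04 ± 0.55, SE, adjusted p = 0.643), Prc1 (-1.51 ± 0.39, SE, adjusted p = 0.308) and the factor E2f2 (-2.45 ± 0.96, SE, adjusted p = 0.511).

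Between regions, 1 gene of these lists passed. Cdca5, or sororin, which holds sister chromatids together, fell by 0.97 ± 0.16 (SE, adjusted p = 0.00939 in limma) from the mPFC to the NAc, with group means between -2.69 and -1.87 in the mPFC and between -3.24 and -3.03 in the NAc. It was 1 of 221 genes called in that comparison (0.895% of those tested). With slide as a random block its adjusted p was 0.287. Each of the 4 slides held a single region. In the replication list and among the inhibitors and regulators, the replication factor Rpa1 (-0.57 ± 0.30, SE, adjusted p = 0.377) and the phosphatase Cdc25a (1.23 ± 0.55, SE, adjusted p = 0.292) had the smallest p for region, and neither passed.

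The sorted cells carried the markers of microglia. All 12 microglial genes listed, Cx3cr1, P2ry12 and Tmem119 among them, were well above background on all 26 arrays. Tlr2, which the publication names as deleted and the labels do not, ran from 0.62 to 2.68 in the 12 WT samples. In the 14 TLR-DKO samples it ran from -4.60 to -3.46 and was well above background on none (difference -5.73 ± 0.20, SE, adjusted p = 8.11e-14 in limma). Tlr4 ran from 1.60 to 3.14 in WT and from 1.43 to 3.86 in TLR-DKO samples, and was well above background in all of them. Where its probe lies relative to the deleted part is not given in the sources used here. Cells that divide in the adult brain other than microglia were looked for by their markers. Of 6 oligodendrocyte precursor genes, Cspg4, Olig2 and Sox10 were well above background on all arrays and Pdgfra on 4. The log2 of their summed level ran from -0.32 to 2.26 per array, highest in a WT NAc R-SDS sample. Of 8 neuroblast and progenitor genes, 4 to 5 per group were well above background on all arrays of the group, with a summed level from 1.39 to 2.72. Among 6 lymphocyte genes 2 to 3 per group were so, with Cd3e and Nkg7 on all arrays and Ms4a1 on none. Of 5 monocyte genes with a probe, at most 1 per group was, with S100a9 on no array. Of neuronal genes 3 to 4 of 8, astrocyte genes 3 to 5 of 6, oligodendrocyte genes 5 to 6 of 6, endothelial genes 1 to 2 of 6 and erythroid genes 1 of 4 with a probe were well above background on all arrays of a group. The part of these cells in the levels above was not tested.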

How the data were processed

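RNA of sorted EGFP-positive cells was read on 26 arrays of 1 colour, in 8 groups of 3 or 4. Per the file headers, the deposited intensity values come from Agilent Feature Extraction 11.0.1.1, and the processed signal is background-subtracted. The deposited series table holds log2 values per probe, scaled by the authors to each array's 75th percentile as set against the scanner values. Each of 62976 spots per array that was no control (59305) was taken on the log2 scale of the processed signal, and the 75th percentile of those values on its array was subtracted. Of 55681 probes, 108 that had no spot free of an outlier flag on some array were left out of all arrays. No spot was saturated. Spots of a probe were averaged, and the brightest probe stood for a gene. Of 29796 probes with a RefSeq identifier 28026 were named through RefSeq, and the others kept the name of the array design.

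Tests took in a gene if the scanner's flag passed it on 3 or more arrays of some group. The 8 group means were fitted in limma 3.58.1 under R 4.3.3, with adjustment over 24684 genes and a threshold of 0.05. The number of arrays limits the precision. The script was tested on simulated data. The members and lists were chosen with earlier results of these data known. Named were all members by role, those with an unadjusted p under 0.05 in a comparison, the 3 with the smallest p in each averaged effect (with Mki67, Top2a and the D-type cyclins in full), and, of other lists, called genes and the 1 with the smallest p in each averaged effect. Each slide held 1 region, and each region spanned 2 slides on 2 scan days. Alternatives were normexp, quantile and median scaling, the series table, the mean of a gene's probes, filters, blocks, array weights and left-out samples. Normexp was run on the median signal with an offset of 50. That column and the fits within a scan day for averaged effects were chosen after seeing the data.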

Additional observations from a re-analysis of the deposited data

Results flagged for a closer look

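Only TLR-DKO mPFC naive and TLR-DKO NAc R-SDS have 4 samples. Taken for each gene and for the count of genes well above background, they gave 86 sets of 4 values. In each set, the gap between the most extreme sample and the next was set against the set's whole range. The sets come from the same arrays and are not independent. In 5 the gap was above the critical value of 0.829, and chance alone flags about 1 in 20 such sets. Mcm5, a helicase subunit, read -1.01 in TLR-DKO NAc R-SDS replicate 1, below the other samples of that group at 0.37 to 0.65. In the same group Plk1, the steadiest gene of the list, read 0.19 in replicate 4, where the others lay between 1.02 and 1.1. The other 3 were in naive TLR-DKO mPFC, each in a different sample. Cdc6, the origin loader, read 1.25 in replicate 2, the only array on which it was well above background, with the others at -5.75 to -5.01. Rrm1 read 2.23 in replicate 1, above 1.45 to 1.55. Cenpa read -3.89 in replicate 4, above -6.09 to -5.88, and none of the 4 was well above background.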

How the results depend on the processing

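No member passed the threshold under any alternative in any of the 17 comparisons (461 of 461 alternative counts were 0), and 458 of 461 medians over the 42 genes stayed within the spread between samples. The exceptions were the stress median in WT mPFC (0.13), which ran from -0.36 to 0.33 when a sample was left out, the mPFC difference of stress effects (-0.25), at 0.43 on slide 2 alone, and region in stressed WT (-0.14), at -0.67 on scan day 2 alone. Of named members, 1072 values kept their direction and 40 turned, all of differences that passed no threshold. Mki67's averaged stress difference (-0.14) was 0.11 with normexp, 0.039 on day 1, 0.063 without both outlying arrays (replicate 3 of WT mPFC R-SDS, replicate 1 of naive TLR-DKO mPFC) and -0.31 to 0.040 with a sample left out. Its region difference (0.50) was -0.10 on day 1. Top2a's averaged stress difference (0.0019) was -0.082 with normexp, -0.042 with quantile, -0.094 with median centring, -0.0043 in the series table, -0.010 with array weights, -0.067 on day 1 and -0.16 to 0.13 with a sample left out. Its genotype difference (0.011) was -0.024 with normexp, -0.36 on day 2, -0.015 with a scan day block, -0.023 without both outlying arrays and -0.12 to 0.17 with a sample left out. The cause was not tested. With Mki67, the stress difference in WT mPFC ran from -4.06 to -0.63 and the genotype difference after stress from 1.32 to 5.65 over all alternatives.

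The deviations of same-numbered samples from their group means had correlations from -0.14 to 0.24, with 13 of 36 pairs over 0.1. Samples with unlike numbers were not compared, so these values do not decide whether the numbers pair samples. The main fit did not pair them. With the replicate block, 0 members passed in any comparison, and Top2a's averaged genotype difference was -0.057. Over all genes, the averaged region effect called 221 in the main setting, 10 with normexp, 85 with median centring, 449 with array weights, 439 with the scan day as a block and 0 with slide as a random block. Signal over background limits the dim genes: 13 of the 42 could not be tested.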
